A study of Saccharomyces cerevisiae with 222 samples.

Results

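Sites of DNA synthesis in early S phase were compared between budding yeast cells that had replicated part of their genome in G1 through a bypass of both kinase controls (CDK/DDK bypass) and control cells that had not. The members were the summits (the position in a called EdU peak where enrichment was highest) in the 2 CDK/DDK bypass lists and the 2 control lists, on the 16 nuclear chromosomes. Chromosome 12 from 200 to 450 kb was left out, because the CDK/DDK bypass lists held a dense run of summits there. This gave 1198 summits of the 2434 in all 6 lists of the experiment. The remaining samples, 216 of 222, were not used.

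Each group was a single strain of W303 background with 2 replicates, and nothing in the labels says whether these came from separate cultures, so the p-values measure only the spread between these samples. Control cells carried no bypass. CDK/DDK bypass cells expressed Dpb11, the phosphorylation-mimicking form sld2-T84D and Dbf4, the regulatory subunit of the Dbf4-dependent kinase, from the galactose-inducible GAL1-10 promoter. All cells were grown in raffinose, arrested in G1 with α-factor, and given galactose for 3 h, controls included. They were then released for 90 min into new medium. It held 200 mM hydroxyurea (HU), which depletes nucleotides and slows forks close to the origins that have fired, and 100 µM EdU, a thymidine analog that marks newly made DNA.

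Yeast origins lie at autonomously replicating sequences (ARS), short elements that hold an AT-rich ARS consensus bound by the origin recognition complex. In G1 the Mcm2-7 helicase is loaded there, and in S phase CDK and DDK activate it, CDK through Sld2, Sld3 and Dpb11 and DDK by phosphorylating Mcm2-7. Under HU, origins that fire early are labeled and most of those that fire late are held back by the checkpoint, so that EdU peaks mark mainly the early ones. Ty elements are the retrotransposons of yeast. They are bounded by long terminal repeats (LTR), exist in many closely similar copies and mostly insert upstream of tRNA genes.

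The ARS sequences at the sites gained in CDK/DDK bypass and at the highest lost and kept sites are shown first, because the comparison turns on which of them were called. All are from the R64 reference (sacCer3), 5′ to 3′, on the strand that gives the best match. Capitals mark the 11 bases of the feature closest to the ARS consensus, with 20 bases on either side in lower case. An exact match was present in 124 (35.2%) of the 352 annotated nuclear ARS features and a window with at most 1 mismatch in 300 (85.2%), both strands searched, so a match is a description of the feature and not an origin call.
ARS409 (gained, chromosome 4, 212560 to 212610, minus strand, 0 mismatches): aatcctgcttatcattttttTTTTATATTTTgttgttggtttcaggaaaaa
ARS1113 (gained, chromosome 11, 417178 to 417228, minus strand, 2 mismatches): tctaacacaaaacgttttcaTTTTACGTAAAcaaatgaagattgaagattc
ARS1625 (gained, chromosome 16, 695453 to 695503, plus strand, 1 mismatch): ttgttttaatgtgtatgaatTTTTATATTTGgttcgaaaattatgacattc
ARS1507 (gained, chromosome 15, 72671 to 72721, plus strand, 1 mismatch): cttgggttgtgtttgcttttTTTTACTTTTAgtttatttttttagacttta
ARS1612 (gained, chromosome 16, 261568 to 261618, minus strand, 0 mismatches): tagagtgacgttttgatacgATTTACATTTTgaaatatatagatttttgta
ARS1426 (lost, chromosome 14, 635770 to 635820, plus strand, 1 mismatch): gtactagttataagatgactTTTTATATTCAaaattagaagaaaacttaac
ARS1016 (lost, chromosome 10, 454716 to 454766, plus strand, 1 mismatch): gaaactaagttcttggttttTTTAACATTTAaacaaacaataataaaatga
ARS1019 (kept, chromosome 10, 613043 to 613093, minus strand, 1 mismatch): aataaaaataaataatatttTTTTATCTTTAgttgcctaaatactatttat
ARS306 (kept, chromosome 3, 74501 to 74551, plus strand, 0 mismatches): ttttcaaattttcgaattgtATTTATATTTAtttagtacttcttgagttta

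The reference sequence around the highest control summit of a Ty family is shown next, since most of the difference between the lists lay in these elements. Each is a stretch of 75 bases, a read length given in the methods of the study, centred on a summit of control replicate 2 and written in the direction of the element. The Ty1 summit, at 549147, was also called in CDK/DDK bypass replicate 2. Both CDK/DDK bypass lists had a summit within the printed Ty3 stretch, at 712208 and 712206. With 2 or 3 copies, these stretches lie below the median of 14 copies for control Ty summits.
Ty1, in YHRCTy1-1 (chromosome 8, 549110 to 549184, minus strand, 2 copies in the genome): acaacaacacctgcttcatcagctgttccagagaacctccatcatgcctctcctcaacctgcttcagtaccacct
Ty2, in YLRWTy2-1 (chromosome 12, 941862 to 941936, plus strand, 3 copies): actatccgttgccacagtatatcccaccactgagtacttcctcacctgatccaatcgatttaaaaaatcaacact
Ty3, in YGRWTy3-1 (chromosome 7, 712170 to 712244, plus strand, 2 copies): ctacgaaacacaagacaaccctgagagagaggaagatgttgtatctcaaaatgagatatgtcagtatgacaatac
Ty4, in YHLWTy4-1 (chromosome 8, 90991 to 91065, plus strand, 3 copies): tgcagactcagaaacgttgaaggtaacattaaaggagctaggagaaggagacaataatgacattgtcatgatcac

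Control lists held 311 and 382 summits and CDK/DDK bypass lists held 223 and 282, so the groups did not overlap. The means were 346.5 ± 50.2 and 252.5 ± 41.7 (SD, n = 2), a difference of -94 summits (exact two-sided permutation test, p = 0.333, adjusted p = 0.5 over 6 tests). With 2 lists against 2, 0.333 is the smallest p this test can give. The difference was 2 without summits in repeated sequence and 0.5 with the chromosome 12 segment put back. The lists hold no read counts, so the depth behind each is unknown, and a missing summit is a missing call.

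With the chromosome 12 segment left out, nearly all of the difference in summits per list lay inside Ty elements. Control lists had 65 and 126 summits inside the 50 annotated Ty elements, which was 20.9% and 33.0% of their summits. CDK/DDK bypass lists had 8 and 10, or 3.59% and 3.55%. The lists did not overlap, and the group means differed by -86.5 summits (exact permutation p = 0.333, adjusted p = 0.444 over 4 tests chosen after the Ty summits were seen). With all lists cut to the 223 highest summits, the difference inside Ty elements was -26.5. Outside Ty elements the lists held 246 and 256 summits in control and 215 and 272 in CDK/DDK bypass. There the groups overlapped, with a difference of -7.5 (exact permutation p = 1).

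**Figure D1:**
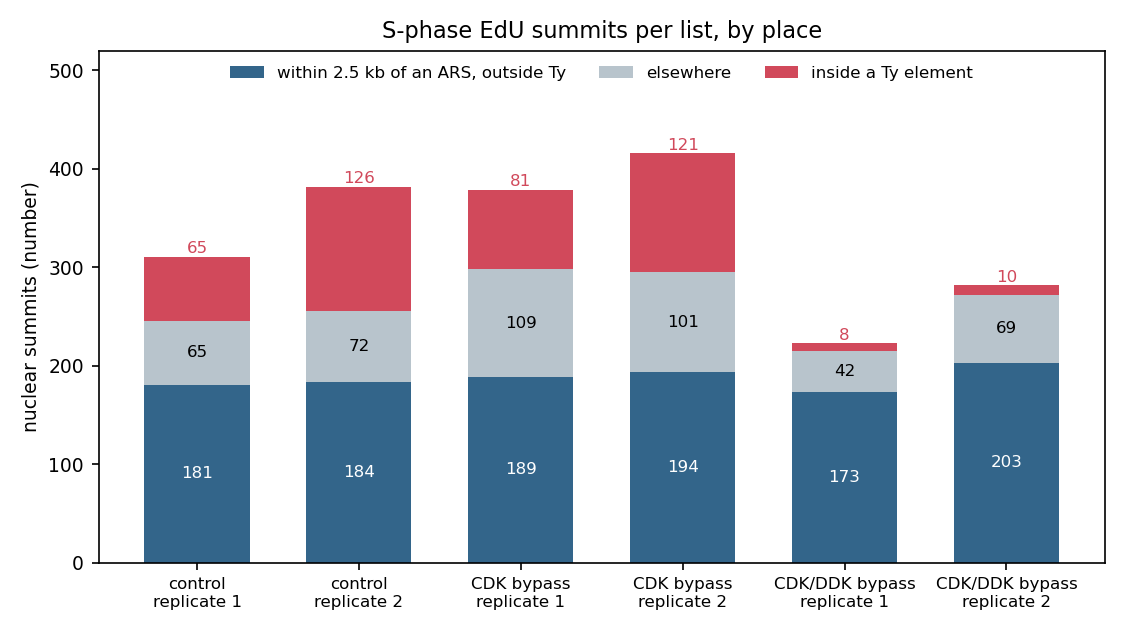
Nuclear summits outside the chromosome 12 segment in each list (bars, number of summits), divided by place, for control, CDK bypass and CDK/DDK bypass, 2 replicates each. The part inside Ty elements numbered 65 to 126 in control and CDK bypass lists and 8 and 10 in the CDK/DDK bypass lists, while summits within 2.5 kb of an ARS outside Ty elements numbered 173 to 203 in all 6 lists.

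The 2 lists of the third strain, with CDK bypass alone, are set beside these values because they were made in the same way. They had 81 and 121 summits inside Ty elements. Both values lay within the range of the control lists and above both CDK/DDK bypass lists. Ty elements with at least 1 summit inside them numbered 42 and 45 of 50 in control, 44 and 47 in CDK bypass, and 5 and 7 in CDK/DDK bypass.

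By family, most calls at Ty1, Ty2 and Ty4 were missing in CDK/DDK bypass, while both Ty3 elements were called. Of the 31 Ty1 elements, 24 and 28 had a summit in the control lists and 2 and 3 in the CDK/DDK bypass lists. Of the 13 Ty2 elements, 13 and 12 had one in control and 1 and 1 in CDK/DDK bypass. All 3 Ty4 elements were called in both control lists, against 0 and 1 in CDK/DDK bypass. Both Ty3 elements were called in all 4 lists, with 7 and 6 summits in control and 5 and 5 in CDK/DDK bypass. The highest score in YGRWTy3-1 was 51.7 and 91.5 in control and 7.30 and 8.20 in CDK/DDK bypass. The families were not tested against each other. The single Ty5 element, near the left end of chromosome 3, had no summit inside it in any of these lists.

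**Figure D2:**
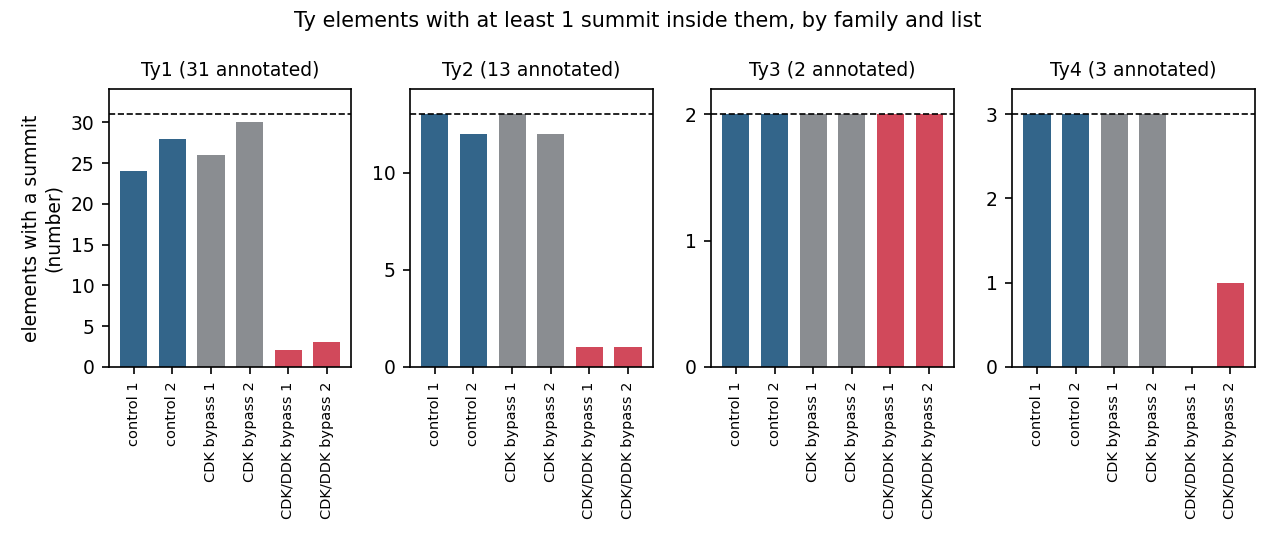
Number of annotated elements of each Ty family (vertical axis; dashed line, all annotated elements) with at least 1 summit inside them in each of the 6 lists. Ty1 elements with a summit numbered 24 to 30 in control and CDK bypass lists and 2 and 3 in CDK/DDK bypass lists, while both Ty3 elements had one in every list.

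Taken element by element, 34 of the 50 Ty elements (percent called, 68) were called in both control lists and in neither CDK/DDK bypass list. Those called in all 4 lists numbered 5 (10%), and 0 were called only in both CDK/DDK bypass lists. The 5 were YARCTy1-1, YNLWTy1-2, YNLCTy2-1 and both Ty3 elements, YGRWTy3-1 and YILWTy3-1. In YARCTy1-1 the CDK/DDK bypass summits lay 1212 and 1211 bp from ARS101, and in YNLCTy2-1 they lay 2018 and 1878 bp from ARS1422. In YNLWTy1-2 they lay 23054 and 23041 bp from the nearest ARS, in sequence with 9 and 13 copies, and those in the Ty3 elements lay 3104 to 8756 bp from one. With equal list lengths, 17 elements were lost. Ty elements are not independent sites, since copies of a family share sequence. The median control summit inside a Ty element lay in 75 bases that occur 14 times in the genome, in both control lists, and only 4 of 65 and 5 of 126 such summits lay in single-copy sequence. Reads from one copy can be placed on another, no filter on mapping quality is given for the peak calls, and the positions are those of the reference and not of the W303 strains. In CDK/DDK bypass, 5 of 8 and 4 of 10 Ty summits lay in single-copy sequence.

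Ty summits in control ranked low. Their median score (−log10 q-value) was 17.3 and 13.8 in the control lists, at a median percentile of 28.0 and 31.9 among all summits of the list. Scores in the CDK/DDK bypass lists were also lower at sites that all 4 lists called. At the 149 such sites (kept sites, below) the median of the highest score was 794 and 1024 in control, 350 and 418 in CDK bypass, and 50.4 and 73.6 in CDK/DDK bypass. The median score of all summits was 122 and 48.5 in control, 24.7 and 24.7 in CDK bypass and 30.6 and 24.4 in CDK/DDK bypass. The part of these score differences in the Ty result was not tested.

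To set Ty summits beside other control summits of like rank, the control summits were divided into 4 bands by score percentile, and the share with a CDK/DDK bypass summit within 1 kb was taken. In the band from the 25th to the 50th percentile of control replicate 1, 3 of 32 Ty summits (9.38%) were found again in either CDK/DDK bypass list. Of the 32 summits near an ARS in the same band, 13 (40.6%) and 19 (59.4%) were found, and of the 14 elsewhere 1 and 0. In control replicate 2 the same band gave 1 and 0 of 56 Ty summits, 4 (15.4%) and 15 (57.7%) of 26 near an ARS, and 1 and 2 of 15 elsewhere. The counts for Ty summits were below those for summits at origins in this band and near those for summits elsewhere. In the band from the 50th to the 75th percentile of control replicate 2, 1 and 3 of 20 Ty summits were found, against 29 and 38 of 47 near an ARS and 11 and 15 of 28 elsewhere. In the CDK bypass lists, 31 and 32 of the 32 Ty summits between the 25th and 50th percentile of control replicate 1 were found, and 38 and 48 of the 56 of replicate 2. These are counts over summits of 2 lists, several of them in the same element, and no test was made of them.

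**Figure D3:**
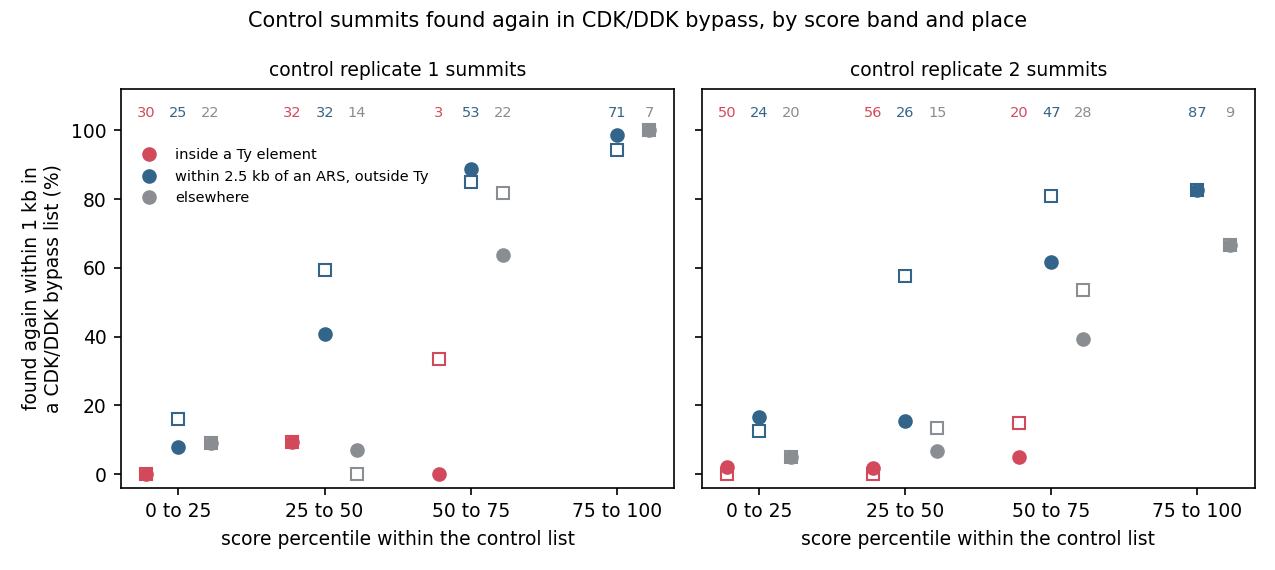
Percent of control summits (vertical axis) with a CDK/DDK bypass summit within 1 kb, by band of the score percentile within the control list (horizontal axis) and by place; filled circles are CDK/DDK bypass replicate 1, open squares replicate 2, and the numbers at the top give the control summits in each set. Between the 25th and 50th percentile, Ty summits were found again in 0% to 9.38% and summits near an ARS in 15.4% to 59.4%.

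The share of summits that lay near an ARS (within 2.5 kb) was 59.2% and 51.0% in the control lists and 78.5% and 73.0% in the CDK/DDK bypass lists. The difference of the means was 20.7 percentage points (exact permutation p = 0.333, adjusted p = 0.5), and 0.996 points with the chromosome 12 segment put back. Outside Ty elements the shares were 73.6% and 71.9% in control and 80.5% and 74.6% in CDK/DDK bypass. The groups still did not overlap, but the difference was 4.82 points (exact permutation p = 0.333, adjusted p = 0.444). The number of summits near an ARS outside Ty elements was 181 and 184 in control and 173 and 203 in CDK/DDK bypass, so the control values lay between those of the CDK/DDK bypass lists.

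The overlap was then taken in both directions, with each summit widened by 5 kb on each side. Of the control summits, 69.4% ± 5.22 (SD over 4 pairs of lists) had a window that overlapped one of a CDK/DDK bypass list, with a range of 63.1% to 75.9%. Of the CDK/DDK bypass summits, 94.1% ± 1.92 overlapped a control list, with a range of 92.6% to 96.4%. The ranges of the 2 directions did not overlap. Between the control replicates the overlap was 98.4% in both directions. Between the CDK/DDK bypass replicates it was 100% of the 223 summits of replicate 1 and 87.6% of the 282 of replicate 2. The values for control summits in CDK/DDK bypass lay below both values between replicates.

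With summits inside Ty elements left out, 77.8% ± 5.22 of the control summits overlapped a CDK/DDK bypass list and 92.9% ± 1.82 of the CDK/DDK bypass summits overlapped control. Control summits with no overlap in either CDK/DDK bypass list numbered 73 of 311 and 113 of 382. Of these, 33 and 65 lay inside Ty elements, 23 and 25 near an ARS and 17 and 23 elsewhere. CDK/DDK bypass summits with no overlap in either control list numbered 7 of 223 and 19 of 282, and 6 and 16 of them lay near an ARS. None was inside a Ty element.

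**Figure D4:**
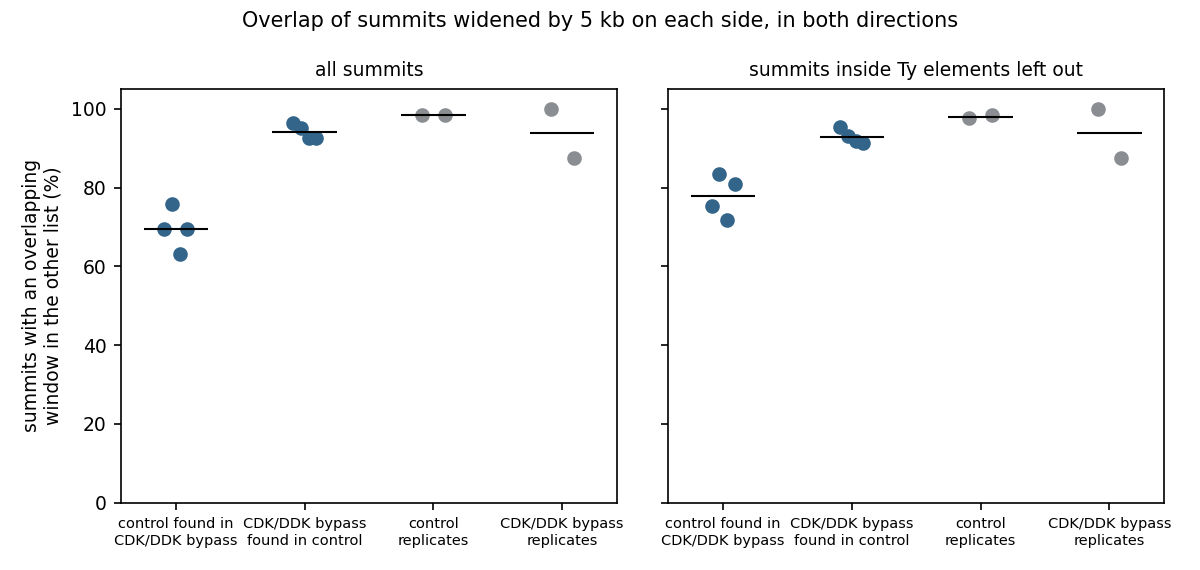
Percent of the summits of a list (points, 1 per ordered pair of lists; lines, means) whose window of 5 kb on each side overlaps a window of the other list, between groups in both directions and between replicates, for all summits and without those inside Ty elements. Control summits found in CDK/DDK bypass had a mean of 69.4% (77.8% without Ty summits) and CDK/DDK bypass summits found in control a mean of 94.1% (92.9%).

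Merging the windows of the 4 lists gave 217 sites. Sites called in all 4 lists (kept) numbered 149 (68.7%). Sites called in both control lists and in neither CDK/DDK bypass list (lost) numbered 34 (percent called, 15.7), and sites with a call in each CDK/DDK bypass list but in no control list (gained) numbered 5 (2.3%). The other 29 were called in some other combination, and 16 of them were missing only from CDK/DDK bypass replicate 1, the shortest list. Of the 199 sites called in both control lists, 74.9% were kept and 17.1% lost. Of the 155 called in both CDK/DDK bypass lists, 96.1% were kept and 3.23% gained. An ARS lay in 132 of 149 kept sites (88.6%), in 15 of 34 lost sites (44.1%) and in 5 of 5 gained sites. Over all 217 sites an ARS lay in 173 (79.7%). The numbers of lost and gained sites grew to 73 and 17 with windows of 1 kb, and the lost sites numbered 19 once summits in repeated sequence were left out.

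The highest summit of the lost sites stood at a median percentile of 33.8 and 47.5 in the control lists, against 75.2 and 80.1 for the kept sites, and the highest lost site had a mean percentile of 58.2. By kind, 15 of the 34 lost sites had control summits inside a Ty element, 11 had an ARS and no Ty summit and 8 had neither. Among the 149 kept sites these numbers were 23, 111 and 15. The count was then limited to sites called in both control lists with a mean percentile of at most 58.2. This limit is the percentile of the highest lost site, so it was set by the lost sites themselves. Over all kinds, 34 of these 65 sites (52.3%) were lost. The lost were 15 of 18 with a Ty summit, 11 of 37 with only an ARS and 8 of 10 with neither.

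**Figure D5:**
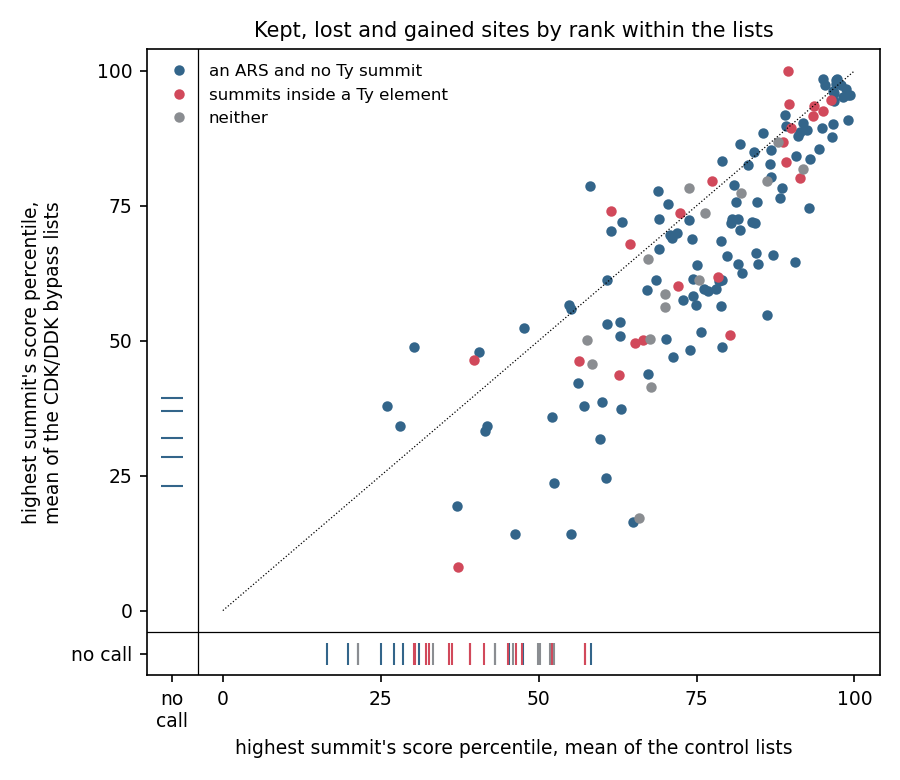
Each merged site by the score percentile of its highest summit, mean of the control lists (horizontal axis) against mean of the CDK/DDK bypass lists (vertical axis). Points are kept sites, ticks in the lower strip are lost sites, ticks in the left strip are the 5 gained sites, colours give what the site holds and the dotted line marks equal percentiles. Lost sites reached at most 58.2 in control.

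The highest lost site was the origin ARS1426, on chromosome 14 from 627386 to 640600. The highest control summits were 64 and 73 bp away from the ARS, at percentiles of 53.4 and 63.1 and scores of 159 and 235. They fell between RPC34, a subunit of RNA polymerase III, and SWM2. No summit was called there in either CDK/DDK bypass list. The site at ARS1016 and ARS1017, on chromosome 10 from 450053 to 461459, had its highest control summits inside ARS1016, next to TDH2, a glyceraldehyde-3-phosphate dehydrogenase, at percentiles of 46.0 and 49.2. The site at ARS1529, on chromosome 15 from 969526 to 987142, had its highest control summits inside REV1, a translesion polymerase, 445 and 268 bp from the ARS and at percentiles of 43.7 and 49.2. It also held YORWTy2-2, with 1 and 2 control summits inside it.

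The other lost ARS sites ranked lower. At ARS106, on chromosome 1 from 64347 to 76145, the control percentiles were 30.9 and 31.2. At ARS404, on chromosome 4 from 41570 to 52970, they were 30.2 and 26.7, with the highest summits inside HO, the mating-type switching endonuclease. ARS300, in the site at the left end of chromosome 3 from 1 to 5215, reached 48.2 and 38.0, and ARS1319, on chromosome 13 from 498936 to 509951, reached 39.5 and 51.0 beside a leucine tRNA gene and LTRs. The lowest was ARS1333 on chromosome 13, at 17.4 and 15.7, which the annotation lists as a putative origin.

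Among the 12 highest lost sites, 4 had their highest control summit inside a Ty element. YPLCTy4-1, on chromosome 16 from 432613 to 444211, had percentiles of 50.8 and 63.9 and lay 14739 and 14728 bp from the nearest ARS. YHLWTy4-1, on chromosome 8 from 84486 to 96028, had 50.5 and 64.1, with both highest summits within 2 bp of each other (91026 and 91028), and is the Ty4 element whose sequence is printed above. YLRWTy2-1, on chromosome 12 from 936899 to 951730, had 46.3 and 57.9 and held 4 and 3 control summits. YCLWTy2-1, on chromosome 3 from 79486 to 94666, had 40.2 and 54.5 and held 3 and 6 summits inside the element. Its highest summits lay 1658 and 2765 bp from LEU2, which encodes an enzyme of leucine synthesis and is a common marker gene.

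Of the 8 lost sites with neither an ARS nor a Ty summit, 5 had their highest control summit within 1 kb of both a tRNA gene and an LTR. Those among the 12 highest were on chromosome 15 from 848823 to 862746, at an alanine tRNA gene (percentiles 48.9 and 56.0), on chromosome 7 from 731078 to 741095, at an arginine tRNA gene (45.3 and 55.2), and on chromosome 11 from 197811 to 207829, at a lysine tRNA gene (41.5 and 50.3). The same arrangement occurred in 4 of the 15 kept sites of this kind, such as the histidine tRNA gene on chromosome 7 from 314630 to 324634 (58.4 mean percentile in control, 45.7 in CDK/DDK bypass). Outside Ty elements, summits within 500 bp of a tRNA gene numbered 29 of 246 and 39 of 256 in control. In CDK/DDK bypass they numbered 20 of 215 and 21 of 272. The remaining high sites were inside MAL31, a maltose permease, on chromosome 2 from 797875 to 807881 (44.1 and 55.8), and at the right end of chromosome 14 (53.7 and 50).

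Gained sites were 5, all at an ARS and all of low to middle rank in CDK/DDK bypass. At ARS409, on chromosome 4 from 207091 to 218642 between RGT2, a glucose sensor, and SCM3, a centromeric histone chaperone, the highest summits lay 0 and 413 bp from the ARS at percentiles of 32.7 and 46.1. At ARS1113, on chromosome 11 from 412193 to 423304 between ARC19, a subunit of the Arp2/3 complex, and URB1, both summits lay inside the ARS at 33.2 and 40.8. At ARS1625, on chromosome 16 from 690083 to 700105 near TKL1, a transketolase, they lay 378 and 356 bp away at 25.1 and 39.0. At ARS1507, on chromosome 15 from 67547 to 78257, they lay 22 and 136 bp away, inside GAS4, at 20.6 and 36.2. At ARS1612, on chromosome 16 from 256282 to 267194 near RAD53, the checkpoint kinase, and PEP4, a vacuolar protease, they lay 0 and 467 bp away at 23.3 and 22.7. The highest summit of replicate 2 there lay inside RAD53. No control summit was called in any of these 5 windows. Their scores, 5.16 to 16.1, were low in lists whose lowest scores were 1.88 and 1.70. With lists cut to equal length, gained sites numbered 9.

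Counted by annotated origin, 194 of the 352 ARS features had a summit within 2.5 kb in at least 1 list. The 352 include 7 inside the segment of chromosome 12 left out, which were not assessed. Control lists had 173 and 168 such features and CDK/DDK bypass lists 151 and 161. Of the 194, 135 (69.6%) were kept, 19 (9.79%) lost and 8 (4.12%) gained. The gained features numbered 14 without CDK/DDK bypass replicate 1 and 12 with equal list lengths, and the lost ones 11 with equal list lengths. The share of features with an exact consensus match was 43.7% of the kept (59 of 135), 31.6% of the lost (6 of 19) and 25% of the gained (2 of 8). Over all 352 features it was 35.2%. It was 28.1% (9 of 32) for features called in another combination and 30.4% (48 of 158) for those with no summit counted. The lost features included ARS1216 and ARS1200-2, on chromosome 12. ARS1216 starts at 450485, so part of the 2.5 kb around it lay in the segment left out, where summits were not counted. ARS1200-2 lies beyond the segment and is an origin of the repeated ribosomal DNA. Without chromosome 12 from 200 to 500 kb, 17 features were lost.

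Kept sites held the highest-scoring summit of each of the 4 lists. The 8 with an ARS that ranked highest over the 4 lists were those at ARS1019, ARS418 with ARS419, ARS1511, ARS1310, ARS306, ARS508, ARS737 and ARS428 with ARS429. None of these 8 was the highest kept site of either CDK/DDK bypass list. The highest kept scores there were 3308 and 4038, against at most 506 and 586 among the 8. What the sites with those highest scores hold is not reported here. At ARS1019, on chromosome 10 from 604148 to 617943, each list had its highest summit inside the ARS, between 612939 and 612943, at percentiles of 97.7 and 96.6 in control and 98.7 and 98.2 in CDK/DDK bypass. At ARS306 the highest summits lay 613 and 814 bp away in control and 46 and 624 bp away in CDK/DDK bypass, at 98.7 and 100 against 93.7 and 97.2. The site of ARS428 and ARS429, on chromosome 4 from 904710 to 927670, holds the histone genes HTA1 and HTB1. It was 22nd and 12th among the 149 kept sites in control and 2nd and 6th in CDK/DDK bypass.

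The order of the kept sites was much alike in the groups, though less so than between replicates. Across the 149 sites, which are not independent replicates, the rank correlation of the highest scores was 0.975 between the control lists and 0.970 between the CDK/DDK bypass lists. For the 4 pairs between groups it was 0.836 to 0.863. Percentiles within a list stand lower in CDK/DDK bypass for most sites (84 of 149 below both control lists, 56.4%, and 19 above both, 12.8%), and depend on how many low-scoring summits a list holds. Ranks among the kept sites do not, and by rank 56 sites stood lower and 54 higher in both CDK/DDK bypass lists than in both control lists.

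The kept sites whose percentile was most reduced lay at both ends of chromosome 16 and at ARS211. The left end of chromosome 16, inside YRF1-7, a helicase gene of the subtelomeric Y′ element, was 110th and 112th of the 149 by rank in control and 148th and 143rd in CDK/DDK bypass. The right end, with ARS1632, was 114th and 111th in control and 149th and 144th in CDK/DDK bypass. ARS211, beside a valine tRNA gene on chromosome 2 from 321060 to 331361, was 133rd and 136th against 146th and 147th. By rank among the 149, the sites whose percentile was most increased stood higher in CDK/DDK bypass. ARS1618, on chromosome 16 from 379547 to 392717, was 130th in both control lists and 49th and 53rd in CDK/DDK bypass. ARS512, on chromosome 5 from 205916 to 219162, was 149th and 147th against 123rd and 117th, and ARS450, on chromosome 4 from 499408 to 524473, was 121st and 122nd against 64th and 60th.

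Chromosome ends were examined as a class. The annotation gives 17 telomere regions with a Y′ element and 15 without. All 17 with Y′ had a summit within 5 kb in both control lists and in CDK/DDK bypass replicate 2, and 12 had one in CDK/DDK bypass replicate 1. Of the 15 without Y′, 2 were called, in both control lists and in neither CDK/DDK bypass list (TEL03L and TEL14R). Of the 12 kept sites that reach a chromosome end, 5 ranked lower and 2 higher in both CDK/DDK bypass lists than in both control lists, with median ranks of 74.5 and 89.5 in control and 84 and 92 in CDK/DDK bypass. Y′ elements are repeated, so these ends are not independent. The median distance of summits from the nearer chromosome end was 205 and 213 kb in control and 221 and 218 kb in CDK/DDK bypass, a difference of 10.7 kb (exact permutation p = 0.333, adjusted p = 0.5), which was 19.5 kb with equal list lengths, 23.2 kb without Ty summits, 18.95 kb without summits in repeated sequence and 71.0 kb with the chromosome 12 segment put back. It was 6.65 kb without control replicate 1. The median distance from the centromere was 196 and 210 kb in control and 141 and 170 kb in CDK/DDK bypass, a difference of -47.4 kb (exact permutation p = 0.333, adjusted p = 0.5), which was -20.7 kb without Ty summits, -18.1 kb with equal list lengths, -18.9 kb with 1 summit per 5 kb and -8.30 kb without summits in repeated sequence.

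Kept sites held 1.52 and 1.73 summits on average in control and 1.44 and 1.59 in CDK/DDK bypass, a difference of -0.11 (exact permutation p = 0.667, adjusted p = 0.667). The direction turned to 0.21 once Ty summits were left out. Sites with more summits in both control lists numbered 18 (12.1%) and sites with fewer also 18. The largest losses were at sites with Ty elements. At ARS731 with YGRWTy2-2 and YGRCTy1-3, on chromosome 7 from 806594 to 839903, control lists had 5 and 7 summits, of which 4 and 6 were inside Ty elements, and CDK/DDK bypass lists had 1 and 2, with 0 inside Ty. At ARS450 with YDRCTy2-1, 4 and 6 summits, 3 and 5 of them in the Ty, stood against 1 and 1. At YDRWTy2-2 and YDRCTy1-2, on chromosome 4 from 869678 to 888796, there were 4 and 5 against 1 and 1. The largest increases had no Ty element in the site. The site with ARS432 and ARS453, on chromosome 4 from 1149554 to 1174728 near the hexose transporter gene HXT6, went from 1 and 1 summits to 3 and 6. The site with ARS1012 and ARS1013, on chromosome 10 from 366382 to 383372, went from 1 and 1 to 5 and 2, and the site of ARS1114, on chromosome 11 from 440193 to 462627, from 1 and 1 to 2 and 4.

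The highest summit of a kept site lay a median of 288 and 542 bp from the nearest ARS in control and 83.5 and 299 bp in CDK/DDK bypass. The groups overlapped, with a difference of -224 bp (exact permutation p = 0.667, adjusted p = 0.667). It was -351 bp without control replicate 1, -98.8 bp without control replicate 2 and -130 bp without CDK/DDK bypass replicate 1. Over 96 of the 149 kept sites the highest summits of all 4 lists lay within 1 kb of each other, and over 19 within 100 bp.

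Known classes of loci were counted by whether a summit lay within 5 kb. No share over all genes or over the genome was taken beside them, so the counts describe only the loci named. Of 7 well known early origins, 6 were annotated under their name (ARS305, ARS306, ARS307, ARS315, ARS606 and ARS607) and all 6 were kept. The lowest of their percentiles in CDK/DDK bypass were those of ARS315, at 62.8 and 78.4, against 79.1 and 84.6 in control. The remaining one, ARS416, is not annotated under that name. ARS1, which the annotation describes as early-firing and which lies beside TRP1, had a summit within 2.5 kb in all 4 lists. None of the 4 lists had a summit at ARS522, ARS603, ARS609 or ARS1412, which the annotation describes as active late or later in S phase. Nor was there one at ARS608, described as extremely inefficient but activated early in S phase. The subtelomeric ARS319, described as highly active, also had no summit in these lists. All 7 silent or dormant origins (among them ARS301 and ARS318) and both silent mating loci, HML and HMR, had none either. Of the 16 centromeres, 5 were kept, 2 lost (CEN3 and CEN4), 3 mixed and 6 had none. Of 10 histone genes, 6 were kept, all in the 3 pairs HTA1 with HTB1, HTA2 with HTB2 and HHT1 with HHF1, 1 was mixed and 3 had no summit. Of the 5 genes whose promoter or coding sequence was used in the bypass strain, DBF4 was kept, with its highest summit 3715 and 3740 bp from it in control and 3117 and 3732 bp in CDK/DDK bypass, and DPB11, SLD2, GAL1 and GAL10 had none. Of the 5 common marker genes, TRP1 was kept, LEU2 lost, ADE2 mixed (1 summit, in CDK/DDK bypass replicate 2) and URA3 and HIS3 had none.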

How the data were processed

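EdU-labeled DNA was pulled down with streptavidin, and the authors aligned reads to sacCer3 with BWA 0.7.17-r1188 and called peaks with MACS2 2.2.7.1 for each sample against its own total DNA, at a stated q-value limit of 0.1, without pooling replicates. The deposited lists give each summit with a score, which is −log10 of the q-value. Scores were used as percentiles within a list, and median scores were set side by side between lists, whose depths may differ. The lists hold no read numbers, and the precision is set by 2 lists per group.

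The comparison used scipy 1.17.1 and numpy 2.4.6 under Python 3.11.15. Windows of 5 kb on each side overlapped by at least 1 bp. Annotation (ARS, Ty, LTR, tRNA, telomeres) and sequences were those of R64 from RefSeq, with all chromosome lengths equal. Group means were tested by exact two-sided permutation with Benjamini-Hochberg adjustment. Functions were tested on simulated lists.

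Sites were named by rule: every gained site, the 12 highest lost, the 8 highest kept with an ARS, and the 3 kept sites with the largest shift in percentile or in summit number each way. The lost sites at ARS106, ARS300, ARS404, ARS1319 and ARS1333 and the kept histidine tRNA site were named after their values were seen. The members and lists were chosen with earlier results of these data known. Ty elements and repeated sequence were examined after the data were seen. Alternatives were score and list length limits, thinning, windows, ARS distances, chromosome 12 limits, single replicates, same-numbered pairs, and leaving out Ty or repeated sequence.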

Additional observations from a re-analysis of the deposited data

Results flagged for a closer look

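Summits left out of the comparisons were more numerous in CDK/DDK bypass than in either control list in 2 places. On mitochondrial DNA the CDK/DDK bypass lists had 70 and 67 summits (mean 68.5), the control lists 28 and 22 and the CDK bypass lists 8 and 4. On chromosome 12 from 200 to 450 kb the CDK/DDK bypass lists had 108 and 98 (mean 103), the control lists 7 and 10 and the CDK bypass lists 8 and 11.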

How the results depend on the processing

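The lists hold no read numbers and 2 lists stand against 2, so no p could go below 0.333 and a missing summit is only a missing call. The difference in summits per list was -94 (0 by construction with equal list lengths) and was 0.5 with the chromosome 12 segment put back and 2 without summits at repeated sequence. The difference in summits per kept site, -0.11, turned to 0.19 with equal list lengths, 0.52 with the segment back, 0.11 and 0.056 with windows of 1 and 2.5 kb, 0.21 without Ty summits and 0.20 without repeated sequence. Leaving out 1 list at a time gave -0.21 to 0.026, and the positive value came without control replicate 2.

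The share of control summits that overlapped CDK/DDK bypass, 69.4%, was 78.9% with equal list lengths, 76.1% with 1 summit per 5 kb, 52.2% and 60.4% with windows of 1 and 2.5 kb, 77.8% without Ty summits and 81.2% without repeated sequence. The reverse share, 94.1%, was 91.3% with equal list lengths, 75.3% with the segment back, and 79.9% and 91.1% with the 2 smaller windows. Lost sites numbered 73 and 53 with windows of 1 and 2.5 kb and 19 without repeated sequence. Gained sites numbered 9 with equal list lengths, 17 and 8 with windows of 1 and 2.5 kb and 10 when a call in 1 list of a group sufficed. Without CDK/DDK bypass replicate 1 they were also 10, within a range of 5 to 10 over the single lists left out, and without replicate 2 the lost sites were 51, within 35 to 51. With equal list lengths, lost ARS features were 11 and lost Ty elements 17, against 19 and 34. The 12 named lost sites and 5 named gained sites kept their calls under the score, list length, thinning, chromosome 12 and single-list alternatives, and 3 and 6 of the lost ones had no summit left without Ty or repeated sequence. They were not followed under other windows or the rule of 1 list per group. The causes were not tested.

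Same-numbered replicates share only a number. As pairs (replicate block) they gave the same differences with p = 0.5, the smallest for 2 pairs, for summits per list (-94), and overlaps of 69.4% and 94.5%, and changed no call. The deviations of replicate 1 from its group mean correlated at 0.11 between the groups over 16 chromosomes.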
